A study of Mus musculus with 24 samples.

Results

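DNA methylation of mouse induced pluripotent stem (iPS) cells carrying a miR-203 knock-in was compared with that of wild-type iPS cells at day 10, on the autosomes. The comparison uses 6 of the 24 deposited samples, which are 3 libraries sequenced on 2 lanes each. They are the knock-in clones KI-N5 and KI-N9 and the wild type (WT). The libraries were chosen by their labels alone, which name wild-type, KI-N5 and KI-N9 cells "short after DOX". All 3 groups, the wild type included, had doxycycline for 5 days and were sampled 5 days after it was withdrawn. In the knock-in clones doxycycline switches on miR-203 for that time. Libraries of the same lines before doxycycline, at day 25 ("long after DOX") and as embryoid bodies are set beside these. The bodies are labelled "+ DOX" in the clones and "10 days of differentiation" in the wild type, without mention of doxycycline. N5 at t=0, at day 25 and as bodies was read on another flow cell than all other libraries. The cells were grown over feeder cells, so some feeder DNA can be in every library, and N5 and N9 are 1 clone each. Level differences between 2 clones and 1 wild-type library cannot be tested by permutation, where the smallest two-sided exact p would be 0.333, and are given as values.

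Methylation of cytosine in CpG dinucleotides is copied at each cell division by Dnmt1 with its cofactor Uhrf1, laid down anew by Dnmt3a and Dnmt3b, and removed by way of oxidation by the Tet enzymes. Most CpGs of a mammalian genome are methylated, while CpG-dense promoters are mostly free of it. Imprinted genes are the exception in which only the copy from a given parent is methylated, so that intermediate levels are usual at their control regions. MicroRNAs bind messenger RNAs through a short seed at their 5′ end and lower their output. MiR-203 is best known from skin, where it restrains the stem-like state of keratinocytes. Its mature strand is encoded at chr12:112130927-112130948 on the plus strand of build GRCm38. It is printed from RefSeq with seed bases 2 to 8 in capitals, since it is the microRNA of the knock-in:
miR-203-3p: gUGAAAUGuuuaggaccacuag

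Oxidative bisulfite sequencing was used, which reads 5-methylcytosine and leaves out its hydroxymethylated form. At day 10 the wild type had 130340648 calls over all CpGs of the deposited table, N5 had 124178713 and N9 had 128541675, or 6.20, 5.90 and 6.11 calls per autosomal CpG. The 2 wild-type columns of day 10 differed by no more than sampling allows, with a variance between them of 0.952 times the sampling variance over 3387541 CpGs, and they were summed and counted as 1 library. The same ratio was 1.08 between N5 and N9, 1.12 between the wild type and N5, and 1.11 between the wild type and N9. Coverage of chromosome 8 relative to all autosomes was 1.003 in the wild type, 1.093 in N5 and 1.324 in N9. Coverage of the X chromosome relative to autosomes was alike in the 3 libraries (0.669 in WT, 0.692 in N5 and 0.683 in N9). Before doxycycline (t=0) it had been 0.661 in the wild type against 0.517 and 0.518 in the clones, and the start of the Y chromosome had coverage of 0.0370 and 0.0386 of that of chromosome 5 in the clones. At day 10 that Y share was 0.0018 in the wild type, 0.0012 in N5 and 0.0009 in N9. Of 10 promoters of pluripotency genes, 9 were below 30% methylated in each of the 3 libraries. Their summed level was 13.2% in the wild type, 13.1% in N5 and 10.5% in N9. The summed level over promoters of 14 genes of feeder fibroblasts was 11.6%, 16.7% and 15.1% in the same order. Methylation calls give no measure of miR-203 itself, so the induction was not checked here.

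A promoter window is 1000 bp on either side of a gene's start. Where RefSeq gives several starts, as for 4163 genes, it sits at the one nearest the 5′ end of the gene record. For genes whose start or strand was not in the RefSeq tables it is set at the end of the gene with more CpGs. The stretches around 6 gene starts are shown as examples, chosen after their values were seen, and the windows of Kcnq1ot1 and Zfp42 did not pass the test. They are the starts of the imprinted gene Zdbf2, of the imprinted antisense RNA Kcnq1ot1 and of a piRNA pathway gene (Tdrd12). A CpG-dense start that was low in the clones and higher in the wild type (Fam178b) follows. The last are the starts of a long noncoding RNA with more methylation in the clones (4930481A15Rik) and of Zfp42, the gene beside the widest methylation difference. Each runs 5′ to 3′ along the gene's strand from 250 bases before its start to 50 after, in build GRCm38.p6 from RefSeq, and CpGs are in capitals.
Zdbf2, chr1:63200108-63200407, plus strand: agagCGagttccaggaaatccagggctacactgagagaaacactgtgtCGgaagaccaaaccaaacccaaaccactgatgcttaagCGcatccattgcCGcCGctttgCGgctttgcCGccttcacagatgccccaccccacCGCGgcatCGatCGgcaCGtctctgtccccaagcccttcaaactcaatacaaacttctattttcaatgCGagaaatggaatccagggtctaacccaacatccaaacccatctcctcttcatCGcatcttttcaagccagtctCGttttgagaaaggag
Kcnq1ot1, chr7:143296498-143296797, minus strand: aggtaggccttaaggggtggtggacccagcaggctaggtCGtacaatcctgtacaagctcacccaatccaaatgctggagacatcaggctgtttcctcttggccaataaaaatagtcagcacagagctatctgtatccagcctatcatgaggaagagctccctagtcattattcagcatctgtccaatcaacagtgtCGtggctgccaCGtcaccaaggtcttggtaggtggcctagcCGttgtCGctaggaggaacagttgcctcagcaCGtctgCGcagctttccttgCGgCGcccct
Tdrd12, chr7:35537695-35537994, minus strand: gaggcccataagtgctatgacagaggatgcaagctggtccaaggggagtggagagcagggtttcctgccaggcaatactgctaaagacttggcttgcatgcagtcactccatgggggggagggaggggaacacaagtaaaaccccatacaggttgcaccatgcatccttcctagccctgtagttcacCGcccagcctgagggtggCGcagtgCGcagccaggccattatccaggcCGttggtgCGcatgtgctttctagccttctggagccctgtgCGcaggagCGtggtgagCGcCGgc
Fam178b, chr1:36683134-36683433, minus strand: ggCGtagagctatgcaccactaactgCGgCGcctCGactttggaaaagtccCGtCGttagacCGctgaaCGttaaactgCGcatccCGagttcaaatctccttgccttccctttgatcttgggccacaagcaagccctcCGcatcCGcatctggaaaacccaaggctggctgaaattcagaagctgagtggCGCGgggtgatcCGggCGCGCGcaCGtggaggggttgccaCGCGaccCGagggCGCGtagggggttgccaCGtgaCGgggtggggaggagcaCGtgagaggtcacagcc
4930481A15Rik, chr19:5406565-5406864, plus strand: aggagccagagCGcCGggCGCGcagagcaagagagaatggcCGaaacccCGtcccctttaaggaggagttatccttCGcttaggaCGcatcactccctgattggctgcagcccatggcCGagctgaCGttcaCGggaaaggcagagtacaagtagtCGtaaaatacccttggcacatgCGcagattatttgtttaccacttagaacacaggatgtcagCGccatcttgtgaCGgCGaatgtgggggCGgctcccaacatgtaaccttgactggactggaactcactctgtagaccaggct
Zfp42, chr8:43306960-43307259, minus strand: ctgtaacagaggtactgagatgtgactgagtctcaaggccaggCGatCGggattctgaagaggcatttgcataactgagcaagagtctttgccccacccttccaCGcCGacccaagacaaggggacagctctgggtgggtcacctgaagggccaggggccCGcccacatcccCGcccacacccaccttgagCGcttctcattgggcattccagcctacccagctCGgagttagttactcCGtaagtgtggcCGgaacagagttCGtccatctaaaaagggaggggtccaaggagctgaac
Over the 15 CpGs of the Zdbf2 sequence, methylation at day 10 was 66.7% in the wild type (36 calls), 26.5% in N5 (49 calls) and 6.17% in N9 (81 calls). The 9 CpGs at Kcnq1ot1 were at 63.5%, 18.9% and 26.7%, and the 9 at Tdrd12 at 58.3%, 10.2% and 6.12%, in the order wild type, N5, N9. The 27 CpGs at Fam178b were at 52.5%, 1.33% and 17.6%. In all 4 of these the clones lay below the wild type, while the 17 CpGs at 4930481A15Rik stood at 9.72% in the wild type against 59.6% and 56.4% in the clones. The 11 CpGs at the Zfp42 start were low in each library, at 10.6%, 13.1% and 6.32%. The motif TGCCGC, read on both strands and not overlapping another motif searched, which is bound by the imprint-keeping factor Zfp57 when methylated, occurs 3 times in the Zdbf2 sequence. At least 1 copy stands in 11.6% of the 32817 mouse promoters of the same length, and the other 5 sequences shown hold none.

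At 12526381 autosomal CpGs with calls in all 12 libraries of the series, methylation at day 10 was 61.4% in the wild type (95% Wilson interval 61.40 to 61.42), 60.1% in N5 and 60.9% in N9. The clones averaged 60.5% ± 0.567 (SD, n = 2), which is 0.887 percentage points below the wild type (a difference of -0.887). N5 stood -1.29 points from the wild type and N9 -0.486, so the difference was of the size of the gap between the clones. Intervals from calls cover counting error only. Before doxycycline the clones had been higher than the wild type, at 65.1% ± 0.0418 (SD, n = 2) against 60.7%, a difference of 4.43 points. At day 25 they stood -13.0 points from it. In embryoid bodies, where the labels name doxycycline for the clones alone, they stood 2.13 points above. Day 10 thus had the smallest difference among the 4 stages.

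The shift was shared by the chromosomes. N5 lay below the wild type on 19 of 19 autosomes, by -1.73 points on chromosome 15 to -0.991 on chromosome 13. N9 lay below it on 18 of 19, from -0.927 points on chromosome 3 to 0.0119 on chromosome 17. The clone mean was farthest from the wild type on chromosome 8, with -1.20 points, and nearest on chromosome 17, with -0.551. The chromosomes of a library share its preparation and are no replicates, so these counts carry no test.

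**Figure D1:**
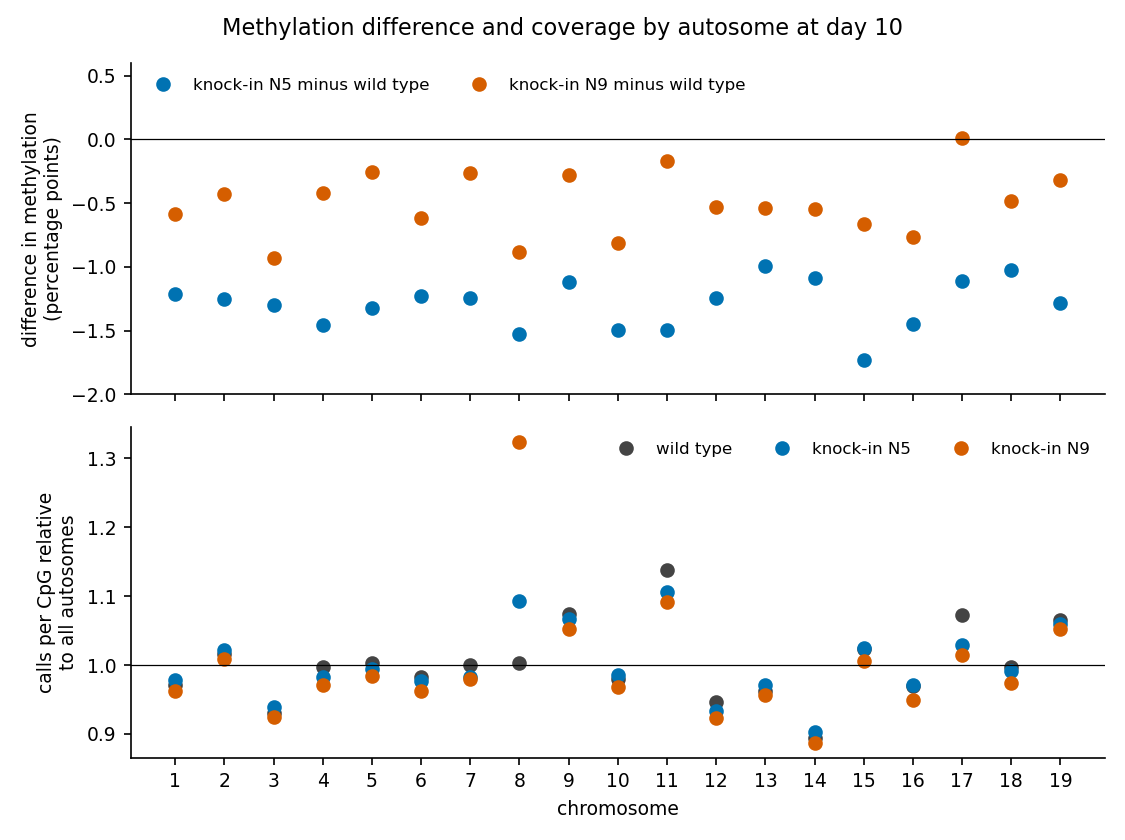
Upper panel: methylation difference at day 10, clone minus wild type in percentage points, on each of the 19 autosomes. Lower panel: calls per CpG relative to all autosomes in the wild type, N5 and N9. N5 lies below 0 throughout and N9 on all but chromosome 17, and on chromosome 8 the coverage ratio is 1.093 in N5 and 1.324 in N9.

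The difference varied with where CpGs lay. CpGs outside genes were at 66.1% in the wild type, 65.2% in N5 and 65.5% in N9. In gene bodies, N5 differed more from the wild type than N9 did, with levels of 64.5% in the wild type, 62.6% in N5 and 64.1% in N9. Promoter windows with under 60 CpGs were at 45.6%, 44.2% and 44.8%, and CpG-rich windows with 60 or more at 4.63%, 4.01% and 4.49%. In each of the 4 classes both clones lay below the wild type. By local density, the difference was widest among CpGs with 16 to 25 neighbours in 500 bp, itself counted, at 33.2% in the wild type against 29.9% in N5 (-3.26 points) and 31.3% in N9 (-1.81 points). The densest class, with 26 or more, differed by -0.531 points in N5 and -0.369 in N9. Sorted by their level at t=0, tiles at 50 to 60% had the largest median difference, -2.23 points, with -3.22 in N5 and -1.20 in N9. Tiles above 80% at t=0 differed by a median of -0.509 points.

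The genome was then cut into tiles of 10 kb, and each tile was tested with edgeR's quasi-likelihood test on methylated and unmethylated calls, with Benjamini-Hochberg adjustment over all tiles. The fit takes all 12 libraries in 8 groups of genotype and stage, so the lone wild-type library of day 10 is taken to have the spread of the clones. Of 233969 autosomal tiles, 236 (0.101%) passed an adjusted p of 0.05, 37 higher in the clones (0.0158%) and 199 lower (0.0851%). Without adjustment 17352 had p under 0.05, 3716 of them higher and 13636 lower. Over all tiles the median difference was -1.13 points, both clones were lower than the wild type in 43.5% of tiles and both higher in 25.0%. The count of called tiles was 134 without N5 at day 10 and 351 without N9, and limma on logit levels called 3. At t=0, with a wild-type library of its own, 3753 tiles (1.6%) had passed, 3606 higher and 147 lower.

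Tiles called higher at day 10 had nearly all been higher before doxycycline. Among these 37 the median level was 51.1% in the wild type, 72.7% in N5 and 73.1% in N9. At t=0 both clones were higher in 36 of the 37, against 67.0% of all tiles, and 35 of the 37 passed the test there. The median difference in these tiles was 22.1 points at t=0 and 20.1 points at day 10. It was smaller at day 25, with 5.31 points, and in embryoid bodies it was 20.4 points. The 199 tiles called lower had medians of 66.8% in the wild type, 43.6% in N5 and 43.6% in N9. At t=0 both clones were lower in 164 of the 199 (82.4%), where 12.6% of all tiles were, and 47 passed the test there. Their median difference was -7.70 points at t=0 and -19.5 points at day 10. By day 25 it was -24.8 points, and embryoid bodies had -8.23 points. The t=0 and later libraries are labelled as the same clones, so they repeat the clone and not the treatment. Coverage of X and of the Y start in both clones, and of chromosome 8 in N5, differed between t=0 and day 10. The part of this in any change since t=0 was not tested. When the day-10 difference was tested against that at t=0 in the same fit, the count of tiles that passed was 0 (0%). An unadjusted p under 0.05 was seen in 33768 tiles, 629 changed upwards in the clones and 33139 downwards, and limma called 0. That count was 1264, 5 higher and 1259 lower, without N9 at day 10 and 1 without N5 at t=0.

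**Figure D2:**
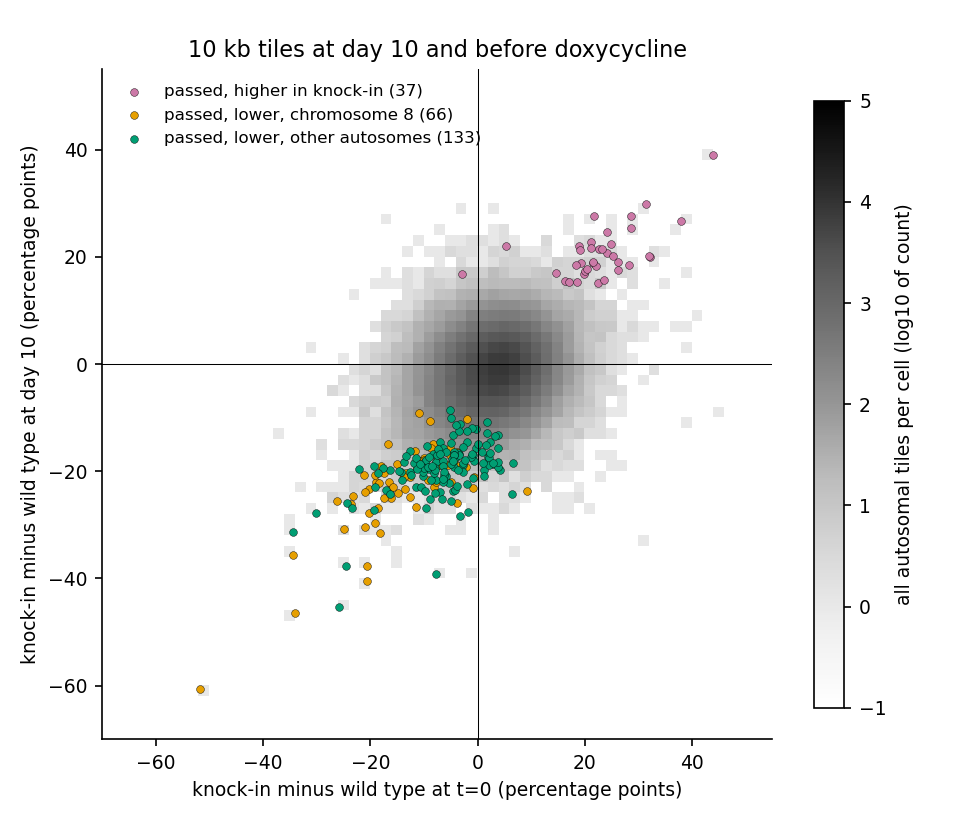
Difference between clones and wild type at day 10 (vertical axis, percentage points) against the same at t=0 (horizontal axis) for 10 kb tiles, with the number of all autosomal tiles in grey (log10 scale) and the tiles that passed as points coloured by direction and chromosome. The 37 tiles called higher have positive values on both axes but for 1, and of the 199 called lower 164 had both clones lower at t=0 as well.

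Chromosome 8 held 69 of the 236 called tiles, which is 0.560% of its 12319 tiles against 0.0753% (167 of 221650) on the other autosomes. Of the 69, 66 were lower and 3 higher. The median difference over all tiles of chromosome 8 was -2.10 points, the lowest of any autosome. The lower tiles of chromosome 8 had medians of 73.5% in the wild type, 50.1% in N5 and 47.9% in N9, and 63 of the 66 were lower in both clones at t=0, 30 of them past the test. On other autosomes 101 of 133 were lower at t=0 and 17 passed. Coverage of chromosome 8 relative to all autosomes was higher in the clones than in the wild type at day 10 (1.003, 1.093 and 1.324 in the wild type, N5 and N9), at t=0 (1.005, 1.328 and 1.326) and at day 25 (1.043, 1.362 and 1.356). N5 at day 10 was the clone library that stood lower than the others. The part of coverage in the lower tiles was not tested.

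The widest region was at Zfp42 (Rex1), a zinc-finger gene that serves as a marker of naive pluripotent cells. A run of 5 adjoining tiles, chr8:43290001-43340000 in mm10, was lower in both clones by a mean of -37.2 points. The tile at 43320001 to 43330000, 12992 bp upstream of the gene, was at 72.1% in the wild type (Wilson interval 68.7 to 75.1), 23.2% in N5 and 28.1% in N9, with an adjusted p of 3.16e-10 by edgeR, the lowest of any autosomal tile. At t=0 it was at 69.6% in the wild type, 34.3% in N5 and 36.8% in N9, so the wild type stood above both clones at each time. The neighbouring tile at 43310001 had the largest difference of all called tiles, 76.0% in the wild type against 11.1% in N5 and 19.7% in N9 (adjusted p = 0.000334), but rests on 50, 81 and 66 calls. Both of these tiles passed under every alternative run for them.

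Along the locus the difference was small at the gene's own start and wide on either side of it. From 26 to 2 kb upstream, a stretch with 512 CpGs, calls gave 67.4% in the wild type, 19.3% in N5 and 23.9% in N9. Inside it, the bins from 12000 to 6000 bp upstream, with 64, 72 and 74 of these CpGs, had 0 calls in each day-10 library. The level there is not known. Within 2 kb of the start the levels were 19.8%, 14.6% and 9.81%. The promoter window was low in each library, at 16.8%, 16.1% and 13.1%, and was not called. Between 2 and 18 kb into and past the gene, the wild type was at 45.6% and the clones at 14.4% and 20.0%. Farther out, 26 to 40 kb upstream, the levels were 68.7%, 54.7% and 58.4%, and 18 to 40 kb downstream 70.9%, 64.4% and 68.6%. The limits of these stretches were set after the profile was seen and carry no test. As a gene body, Zfp42 was at 30.9% in the wild type, 14.1% in N5 and 12.9% in N9 (adjusted p = 0.0136).

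**Figure D3:**
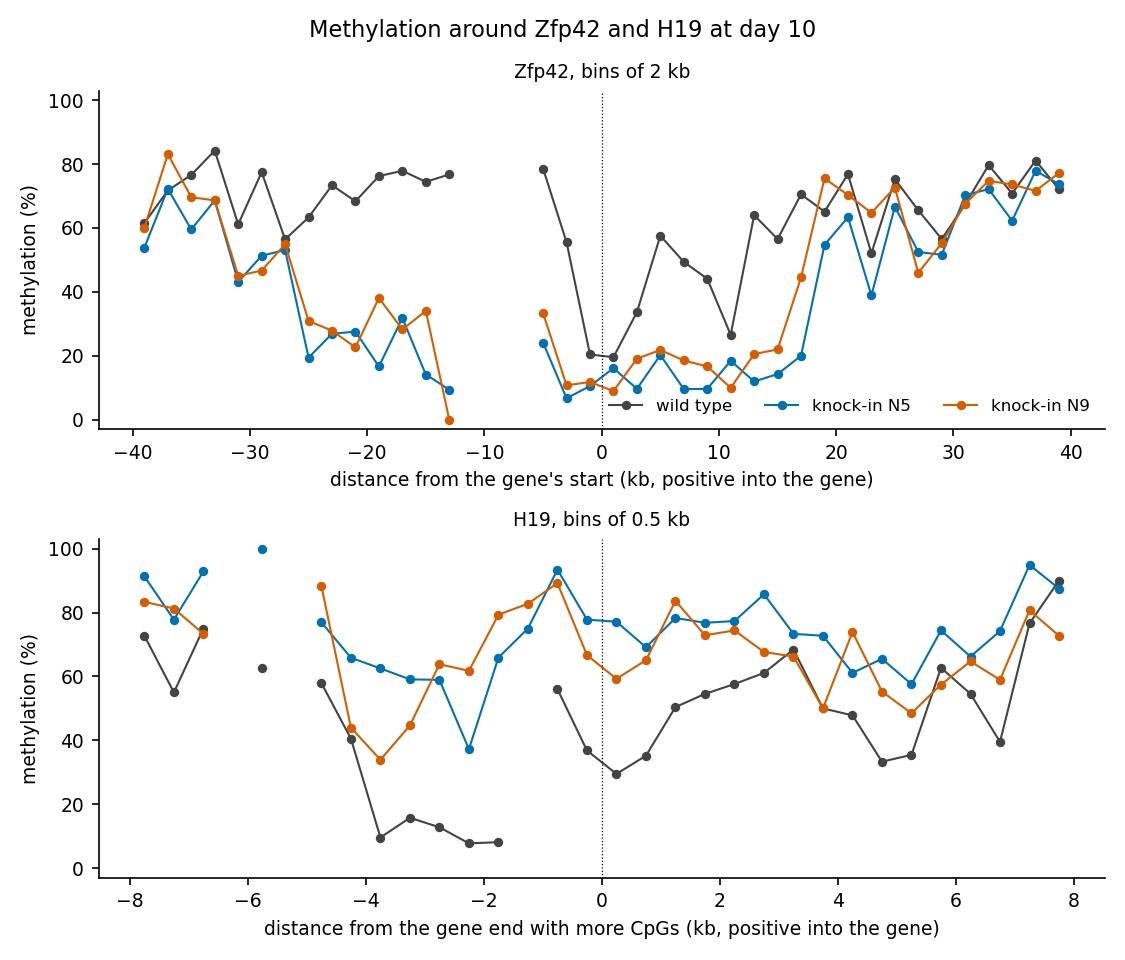
Methylation at day 10 (vertical axis, %) in the wild type, N5 and N9 by distance in kb from the start of Zfp42 (upper panel) and from the end of H19 with more CpGs (lower panel), positive into the gene. Points are bins, and gaps are bins with too few calls. At Zfp42 both clones lie far below the wild type upstream (19.3% and 23.9% against 67.4%) and close to it at the start. At H19 they lie above it from 4.5 kb upstream to 3 kb into the gene, and farther out some bins have a clone below it.

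Imprinted loci were found on both sides. The H19 locus, where the paternal copy is normally methylated and the maternal copy makes a noncoding RNA, was higher in the clones. In the tile at chr7:142580001-142590000, which starts 1855 bp from the gene, the wild type was at 42.3%, N5 at 66.5% and N9 at 67.3% (adjusted p = 0.000247). The tile over the gene was at 51.1%, 76.6% and 71.0% (adjusted p = 0.000572). From 4.5 to 1.5 kb upstream of the start, 82 CpGs stood at 13.9% in the wild type, 52.1% in N5 and 56.7% in N9. At t=0 the same stretch was at 14.0%, 54.3% and 57.9%, close to the day-10 levels in each line. The wild type was the line with the low level here, below both clones at each time. The wild type was at 32.5% there at day 25 and the clones at 47.5% and 49.4%. The H19 promoter window passed too, with 42.3% in the wild type (Wilson interval 36.9 to 47.9), 79.0% in N5 and 70.5% in N9 (adjusted p = 0.0442). At t=0 that window was at 37.2%, 69.6% and 72.6%, with an adjusted p of 0.0125.

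At 3 loci listed as maternally methylated, those of Zdbf2, of Snrpn with Snurf and of Kcnq1ot1, a window or tile was called lower in the clones. Zdbf2, an imprinted gene, had 57.8% in the wild type (Wilson interval 52.3 to 63.2), 24.9% in N5 and 11.9% in N9 over its window (adjusted p = 0.0178). In the 1 kb from its start region it was at 60.9%, 32.0% and 5.31%. By day 25 the lines were closer over the Zdbf2 window, at 26.6% in the wild type, 22.3% in N5 and 30.4% in N9. The tile over Snrpn and Snurf, at chr7:60000001-60010000, whose control region governs the Prader-Willi domain, was at 55.3%, 27.1% and 27.9% (adjusted p = 0.000247). That tile had stood at 57.5%, 30.8% and 24.1% at t=0. The tile over Kcnq1ot1, the antisense RNA that silences its neighbours on the paternal copy, was at 59.8%, 34.9% and 30.1% (adjusted p = 0.000265). At t=0 it was at 56.6%, 43.3% and 31.2%. Around its start, 85 CpGs were at 49.2% in the wild type, 22.5% in N5 and 9.81% in N9. The Kcnq1ot1 window, at 52.3%, 24.3% and 13.2%, missed the threshold (adjusted p = 0.0620).

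Over the list of maternally methylated imprinted genes, 23 windows were measured, both clones were lower in 19 and higher in 0, and the median difference was -7.01 points. Over all 28302 windows tested both clones were lower in 40.01% and higher in 27.4%, with a median of -0.283 points. The list passed the test in 1 window, Zdbf2, where 0.053% of all windows passed. In 6 of its windows the unadjusted p by edgeR was under 0.05, as in 2028 of all 28302. At t=0 its median difference was 0.958 points, against 1.14 over all windows. Some members share a window in part: Peg3 with Usp29, and Peg10 with Sgce. Peg13, a noncoding RNA, was at 46.7%, 19.7% and 30.1% (adjusted p = 0.351), where t=0 had 25.2%, 41.6% and 29.7%. Its wild-type level was thus higher at day 10 than at t=0, while N5 went the other way. Nnat, at 27.0%, 15.9% and 14.9%, and Usp29, at 22.7%, 9.42% and 13.3%, did not pass either. Of the windows of 9 genes listed for paternally methylated domains, both clones were higher in 3 and lower in 2 (27.4% and 40.01% of all windows). Their median difference was 2.29 points, and H19 was the called member, where 0.053% of all windows were called. Meg3, at 29.3%, 33.2% and 31.4%, and Rasgrf1, near 1.01% in the wild type, lay within 4 points of the wild type in both clones. A window is set at the gene, and a control region lying outside it is not measured by it.

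**Figure D4:**
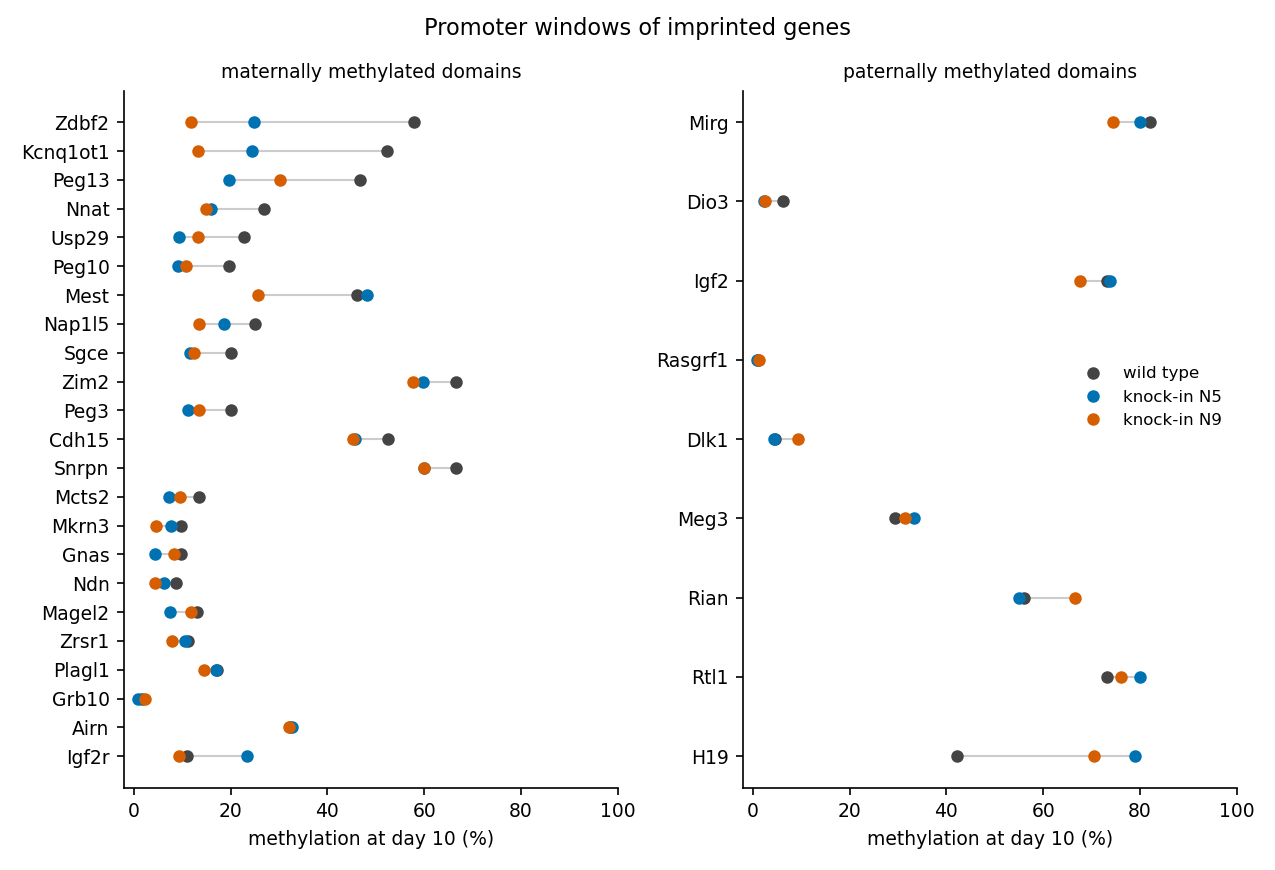
Methylation at day 10 (horizontal axis, %) of promoter windows of imprinted genes in maternally methylated (left) and paternally methylated (right) domains, with a point each for the wild type, N5 and N9 joined by a grey line. Zdbf2 and Kcnq1ot1 lie lower in both clones than in the wild type (57.8% and 52.3%), and H19 lies higher (42.3% in the wild type).

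Other tiles with more methylation in the clones were spread over chromosomes. The largest difference was in a tile on chromosome 17 (35600001 to 35610000), 7923 bp from Gm9573, with 39.1% in the wild type, 79.3% in N5 and 76.9% in N9 (adjusted p = 5.34e-09). At t=0 it was at 35.9%, 77.8% and 82.1%. A tile over Eif3j2, a translation initiation factor subunit gene, had 32.7%, 68.0% and 57.1% (adjusted p = 0.0196 by edgeR). It rests on 336 calls in the wild type against 122 in N5 and 119 in N9, and the part of this gap in coverage was not tested. The call was lost with the clone as a replicate block. Tiles over Ylpm1 (49.8%, 75.8% and 78.9%) and Wiz (46.3%, 74.7% and 73.1%), whose product works with the histone methyltransferases G9a and GLP, were higher as well, as were those near Hsph1, a heat-shock chaperone gene, and Lemd2, a nuclear envelope gene. The order of the lines at day 10 was fixed by the choice of these 6 tiles, and at t=0 both clones lay above the wild type in each, as they did in 67.0% of all tiles. Near Lemd2 a pair of adjoining tiles was called, at 48.2%, 71.7% and 75.6% in the tile at 27240001. The gene body of 9630028I04Rik, a noncoding RNA gene overlapping the first of them, was the single body called higher, with 40.3%, 67.0% and 67.3% (adjusted p = 0.000370).

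Among tiles called lower away from Zfp42, the largest difference lay on chromosome 2 (50680001 to 50690000). This tile, 380980 bp from Mmadhc, the nearest protein-coding gene, was at 68.3% in the wild type, 23.0% in N5 and 23.0% in N9 (adjusted p = 3.01e-06 by edgeR). A tile 15927 bp from Vat1l was at 83.6%, 41.2% and 45.0% (adjusted p = 7.06e-05), and also passed under every alternative run for it. In Fto, which encodes an RNA demethylase, a tile was at 79.7%, 47.3% and 40.9% (adjusted p = 3.11e-06), and at t=0 at 81.9%, 48.5% and 46.5%. The difference in Fto was thus as wide before doxycycline as after. The tile over Triqk was at 72.9%, 29.7% and 37.8% (adjusted p = 0.0337) on 70 to 101 calls, after 86.3%, 80.5% and 76.6% at t=0. Tiles near Defb8 and Med10 passed with wider gaps between the clones (46.7% and 26.4%, and 45.8% and 31.4%). Chosen after their values were seen, the tiles over Etv5, an ETS transcription factor of stem cells (38.6%, 13.1% and 16.7%), and Zeb2, a repressor active in epithelial-mesenchymal transition (45.5%, 23.1% and 21.99%), passed as well. Called tiles fell into 212 regions, 17 of which held several tiles, among them a run of 3 at H2-T22, H2-T23 and H2-T24, nonclassical histocompatibility genes (mean difference -21.2 points).

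Promoter windows were tested in the same way. Of 28302 autosomal windows, 15 passed (0.053%), 4 higher and 11 lower, and 2028 had an unadjusted p under 0.05, 595 higher and 1433 lower. The median difference over all windows was -0.283 points. Limma called 0 windows, with 1899 at an unadjusted p under 0.05. Without N5 or N9 at day 10 the counts were 6 and 7, and with the clone as a replicate block 11. Gm41545 was the 1 window that passed in each setting run for it except limma.

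Noncoding RNA genes were among the windows called higher. Gm41545 had 2.02% in the wild type (Wilson interval 0.981 to 4.10), 32.9% in N5 and 21.7% in N9 (adjusted p = 0.00249). At t=0 it was at 4.31%, 17.7% and 14.9%. 4930481A15Rik, whose start is shown above, was at 24.6%, 64.2% and 72.1% over its window (adjusted p = 0.0151), after 20.96%, 58.6% and 53.5% at t=0. H19, described above, was called as well. Elobl, at 40.7%, 70.4% and 74.7% on 302, 71 and 83 calls, missed the threshold (adjusted p = 0.0530 by edgeR). In these windows the clones lay above the wild type at t=0 too.

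The 11 windows called lower differed in their levels at t=0. At 4933433F19Rik, a noncoding RNA gene on chromosome 8, the clones were as low before doxycycline: 93.9%, 50% and 38.3% at day 10 (adjusted p = 0.0100) and 82.9%, 31.2% and 37.0% at t=0. Zdbf2 was also lower at t=0, at 50.9%, 28.8% and 18.99%, without passing there (adjusted p = 0.120). In Tdrd12, Fam178b and Smim7 the lines were close together at t=0, and the wild type stood higher at day 10 than at t=0. Tdrd12, a Tudor-domain helicase of the piRNA pathway that silences transposons in germ cells, was at 58.2% in the wild type (Wilson interval 52.2 to 64.1), 25.4% in N5 and 28.5% in N9 (adjusted p = 0.0442), after 30.6%, 31.8% and 30.5% at t=0. Fam178b was at 34.1%, 5.44% and 13.3%, after 17.1%, 18.7% and 16.0%. Smim7, on chromosome 8, was at 15.6%, 4.18% and 2.09%, after 3.38%, 3.41% and 4.27%. The calls of Tdrd12 and Smim7 were lost with the clone as a replicate block (adjusted p = 0.0636 and 0.0807 by edgeR), and that of Fam178b kept (adjusted p = 0.0245). Tdrd12 also missed the threshold without N5 (adjusted p = 0.228), without N9 (0.0870) and with wild-type column 1 alone (0.324). In Tdrd12 and Smim7 the clones' levels at t=0 lay within 7 points of those at day 10, and in Fam178b the clones were lower at day 10.

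The bidirectional pair H2ac1 and H2bc1, testis histone genes, and the noncoding RNA Gm33516 beside them share most of their windows and count as 1 locus. H2ac1 was at 56.1%, 25.3% and 15.9% (adjusted p = 0.0254), after 31.2%, 27.3% and 22.1% at t=0, so here too the wild type was the line that stood higher at day 10. Tmem156, a membrane protein gene, was at 60.5%, 24.9% and 29.5%, after 54.3%, 52.7% and 40.8% at t=0. The noncoding RNA genes Gm46780 (59.9%, 25.0% and 26.8%) and Gm33596 (60.5%, 28.9% and 28.6%) had values alike at day 10. With the replicate block the calls of H2bc1 (adjusted p = 0.0636), Tmem156 (0.0561) and Gm33596 (0.0561) were lost too, by edgeR. At t=0 Gm46780 was at 48.5%, 44.0% and 53.5%, and Gm33596 at 58.4%, 39.8% and 48.8%. In Tmem156, Gm46780 and Gm33596 both clones were lower at day 10 than at t=0, and the wild type was higher. Tested against t=0, 0 windows passed (0%), with 2007 at an unadjusted p under 0.05 (198 upwards, 1809 downwards), limma calling 0 as well. A window that misses the threshold is not shown to have kept its difference. For Tdrd12 that difference was -31.8 points (adjusted p = 0.399), and for Gm46780 -34.3 (adjusted p = 0.374). In the 500 bp around the Tdrd12 start, the levels at day 10 were 54.2%, 7.92% and 6.93%, and at t=0 13.2%, 5.21% and 22.6%.

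**Figure D5:**
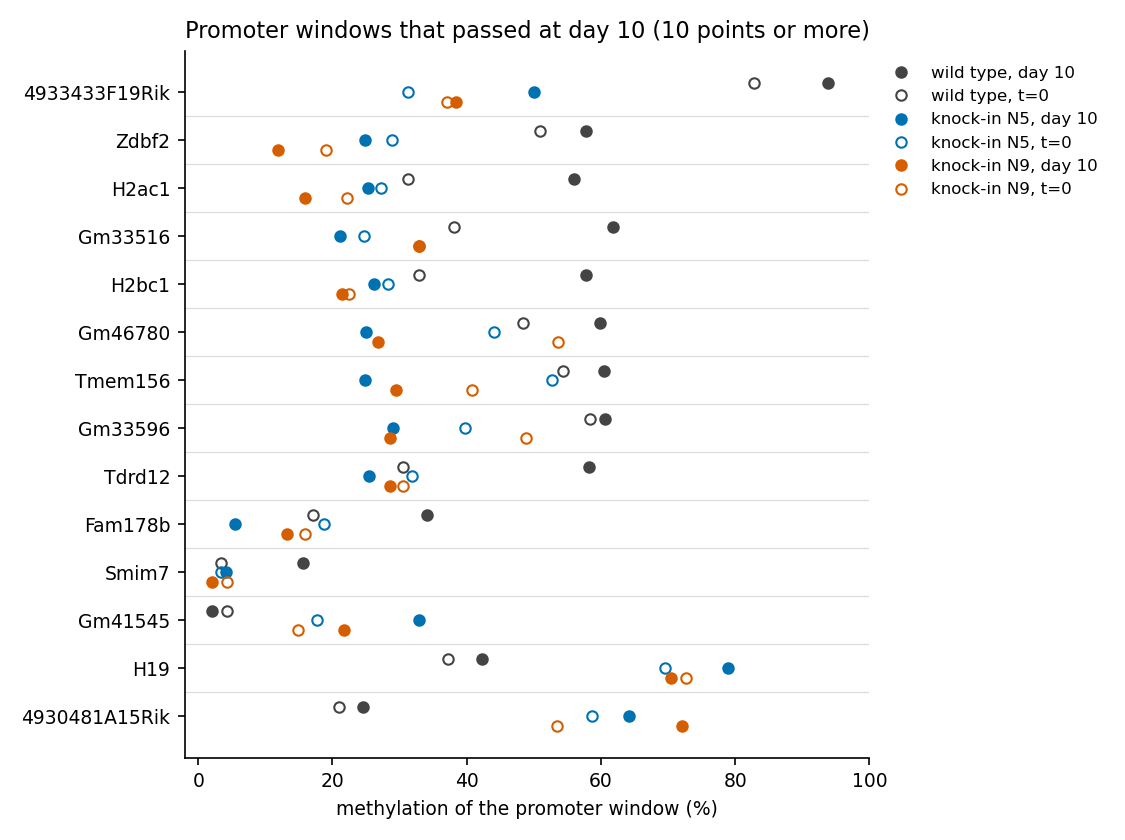
Methylation (horizontal axis, %) of the promoter windows that passed at day 10 with a difference of at least 10 points, with filled points for day 10 and open points for t=0 in the wild type, N5 and N9. In Tdrd12, Fam178b, Smim7 and H2ac1 the wild type lies higher at day 10 than at t=0 (58.2% against 30.6% in Tdrd12), and in H19 and 4930481A15Rik both clones lie above the wild type at both times.

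The germline list held 29 measured windows, with both clones lower in 17 and higher in 2 (40.01% and 27.4% of all windows) and a median difference of -6.34 points at day 10 against 1.21 at t=0. Its median level was 49.4% in the wild type, 41.8% in N5 and 37.7% in N9. Tdrd12 was the member called, where 0.053% of all windows were. Ddx4 (Vasa), an RNA helicase of germ cells, was at 49.4%, 33.9% and 24.7% (adjusted p = 0.393), after 27.2%, 35.4% and 41.0% at t=0. Its order of lines was thus opposite at the 2 times, with no call at either. Rpl10l was at 39.7%, 23.7% and 24.5%. Of 12 genes of the 2-cell-like state, both clones were higher in 4 and lower in 3 (27.4% and 40.01% of all windows). Their median difference was 3.84 points and 0 were called, where 0.053% of all windows were.

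None of 23 pluripotency windows passed, where 0.053% of all 28302 windows did. An unadjusted p under 0.05 by edgeR was seen in 8 of the 23 and in 2028 of the 28302. Both clones were lower in 13 and higher in 2, where 40.01% of all windows were lower and 27.4% higher, with a median difference of -0.654 points. Pou5f1 (Oct4) was the member that stood highest over the wild type, at 12.8% in the wild type, 27.2% in N5 and 28.3% in N9 (adjusted p = 0.340), as at t=0 (15.5%, 28.6% and 31.2%). Tdgf1, a Nodal co-receptor, was at 15.1%, 5.73% and 5.47%, Tcl1 at 34.7%, 14.4% and 17.6%, Gdf3, a ligand of the Nodal branch, at 20.6%, 6.54% and 8.72%, and Nanog at 16.1%, 11.8% and 9.17%. In these 4 both clones lay below the wild type without a call. Among 19 genes of Nodal and Lefty signalling both clones were lower in 11 and higher in 5 (40.01% and 27.4% of all windows). Their median difference was -0.119 points and 0 were called, where 0.053% of all windows were. Lefty1 and Lefty2, secreted inhibitors of Nodal, were at 15.4%, 4.78% and 7.80% (adjusted p = 0.455) and at 22.6%, 9.96% and 16.8% (adjusted p = 0.649).

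Among 18 genes of the methylation machinery 0 windows were called, where 0.053% of all windows were. Both clones were lower in 9 and higher in 2 (40.01% and 27.4% of all windows), and the median difference was -0.247 points. The window of Dnmt1 was at 66.3%, 66.8% and 64.8%, which puts the 3 libraries within 3 points. It covers the start nearest the 5′ end of the gene record, so these levels need not be those of the start in use in these cells. Dnmt3a was at 0.939%, 0.578% and 0.765%, Dnmt3b at 4.55%, 3.45% and 4.46%, Tet1 at 0.951%, 0.797% and 2.08%, and Uhrf1 at 2.76%, 1.54% and 1.909%. Dppa3 (Stella), which holds Uhrf1 away from chromatin, was at 27.4%, 16.6% and 10.3% (adjusted p = 0.408). The window around Mir203 was at 11.3%, 7.31% and 9.46% (adjusted p = 0.900).

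Lists of differentiated lineages lay near the median of all windows, and none of their members passed, where 0.053% of all windows did. The median differences were -0.00432 points over 39 Hox genes, -0.0938 over 18 neuroectoderm genes, -0.198 over 21 mesoderm and cardiac genes, -0.394 over 17 endoderm genes, 0.234 over 14 trophoblast genes and -0.707 over 13 blood genes. Genes of the primed state had a median of 0.204 points over 10 windows, and 13 housekeeping genes had 0.0766. Hoxa9 was at 9.25%, 17.3% and 17.6% (adjusted p = 0.574), and was 20.3%, 12.4% and 11.5% at t=0. Among 20 genes of fibroblasts, which mark feeder cells, both clones were higher in 11 and lower in 3 (27.4% and 40.01% of all windows), with a median difference of 0.506 points. Col1a1, a collagen of fibroblasts, was at 10.8%, 21.8% and 24.9% (adjusted p = 0.393). Lum, another matrix gene, was at 36.7%, 71.1% and 78.9% on 30, 38 and 19 calls (adjusted p = 0.385). The part that the share of feeder DNA has in any difference was not tested.

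Of 25404 gene bodies, 10 passed (0.0394%), 1 higher and 9 lower, with 2038 at an unadjusted p under 0.05. Limma called 0. The median difference was -1.32 points, with -2.05 in N5 and -0.497 in N9. The count was 381 without N9 at day 10, 18 without N5, and 1 without either clone at t=0. Besides Zfp42, Sgcz, a long sarcoglycan gene on chromosome 8, was lower, at 69.2%, 60.1% and 60.7% (adjusted p = 0.0136). Grin2b, a subunit of the NMDA receptor, was at 72.3%, 65.9% and 66.4%. Fam234b was at 69.9%, 54.4% and 57.1% and H2-T24 at 83.6%, 60.8% and 67.8%. Cd244a, a receptor of natural killer cells, was at 50.5%, 33.5% and 34.4% on 1291, 2159 and 2126 calls. Zfp740 was at 36.0%, 17.4% and 20.9%. The noncoding RNA genes Scpep1os (76.2%, 52.5% and 57.6%) and Gm32194 (69.5%, 50.05% and 49.4%) complete the 9. Myc, at 3.38%, 13.8% and 10.8%, was higher without passing (adjusted p = 0.0956), as at t=0 (3.38%, 15.7% and 12.3%).

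Tested against t=0, gene bodies gave calls, unlike tiles and windows. Of the same 25404 bodies, 375 passed (1.48%), 0 with a change upwards in the clones against the wild type and 375 downwards, and 8296 had an unadjusted p under 0.05 (32 and 8264). This test on bodies was added after the values were seen. The count rests on the setting: it was 0 with the clone as a replicate block, 0 with a term for the flow cell, 0 by limma, 0 without N5 at t=0 and 0 without N9 at t=0. Without N5 at day 10 it was 345, and without N9 at day 10 it was 6325, 13 upwards and 6312 downwards. N5 at t=0 was read on another flow cell than the other t=0 and day-10 libraries, and its part in the calls was not tested apart from these settings.

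The direction was that of all bodies. Over the 25404 the median change of the difference was -5.90 points, and over the 375 it was -8.68, from a difference of 6.56 points at t=0 to -1.88 at day 10. The bodies that passed were long, with a median of 1832 CpGs and 14001 wild-type calls at day 10, against 170 and 1182 over all. Their median levels in the wild type, N5 and N9 were 64.9%, 71.7% and 71.7% before doxycycline, against 66.7%, 63.7% and 65.2% at day 10. Both clones had thus come from above the wild type to below it in the medians. Of the 375, 1 also passed for the difference at day 10 itself, Grin2b, which changed by -5.38 points (adjusted p = 0.0488 by edgeR). The largest changes that passed were in short genes. Foxi3, a forkhead factor gene of ectoderm, went from 39.4% (wild type), 65.0% (N5) and 63.8% (N9) before doxycycline to 57.3%, 48.7% and 47.4% afterwards, a change of -34.3 points (adjusted p = 0.0473). Stmn1, which encodes the microtubule regulator stathmin, went from 23.3%, 48.7% and 45.8% to 31.6%, 21.5% and 29.4% (adjusted p = 0.0473), and Abhd11, a hydrolase gene, from 30.5%, 47.3% and 49.7% to 38.7%, 29.1% and 26.4% (adjusted p = 0.0473). Hirip3 and the predicted gene Gm39966 changed by -30.6 and -31.9 points (adjusted p = 0.0499 and 0.0488). In all 5 the wild type was higher at day 10 than at t=0 and both clones were lower. These 5 were chosen for the largest changes downwards, which favours that pattern, so it carries no test.

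For the change since t=0, the tiles with the lowest p are given as values, since none passed. A tile near Gpbp1 went from 39.1%, 66.4% and 66.5% at t=0 to 52.5%, 42.8% and 51.5% at day 10 (adjusted p = 0.0770). A tile in Frmd4b went from 60.8%, 79.4% and 73.3% to 74.5%, 53.4% and 65.6%, and a tile near Nfia from 51.0%, 67.5% and 68.8% to 63.8%, 50.6% and 53.2%. In each of these 3 the wild type was higher at day 10 than at t=0 and both clones were lower, a pattern favoured by their choice for a change downwards. Tiles that changed the other way included one near Nova1, from 58.4%, 46.7% and 41.2% to 31.7%, 49.3% and 43.3% (adjusted p = 0.108). Among windows the lowest p belonged to Fgr, a Src-family kinase gene, from 3.76%, 7.47% and 15.1% to 14.7%, 6.20% and 4.39% (adjusted p = 0.227).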

How the data were processed

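Oxidative bisulfite libraries of mouse iPS cells were read as 125 bp pairs, per the labels' protocols. Per the submitters' processing notes the tools were BWA and Picard 1.91, with build mm10, and no caller of methylation is named there. The authors deposited a table of 21875444 CpG positions with, for each library, raw counts of methylated calls and of coverage, per the file headers and the values. No header ties a wild-type column to a lane, and the 2 columns of a stage were summed. All 32 value columns were matched and 0 left over.

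Calls were summed over tiles of 10 kb and gene bodies (at least 30 calls in every library) and over promoter windows (5 CpGs or more, 10 calls or more in each library), leaving out the first 3000000 bp of each chromosome. The test was edgeR 4.0.16 in R 4.3.3 (quasi-likelihood, 4 residual degrees of freedom, no clone term), with Benjamini-Hochberg adjustment, and was checked on simulated data, where most of the smaller changes set in promoter windows were missed. Limma 3.58.1 was an alternative, with others for the block, flow cell, filters, window sizes and left-out libraries. Nothing says that clones or columns came from separate cultures, so p-values measure only the spread between these libraries. All day-10 libraries share 1 flow cell. Features named are, in each direction, the 12 windows, 8 tiles and 8 bodies with the largest difference that passed (the 5 with the lowest p where fewer than 5 passed), 5 for differences from t=0, 3 members of each of 16 lists with the lowest p, and 10 genes always. Others were named after their values were seen. Tiles take the name of the overlapping or nearest protein-coding gene, or of a few noncoding genes such as H19 and Kcnq1ot1, so another noncoding gene can lie closer. The test of gene bodies against t=0 was added after the data were seen. The members, the lists and the tests were chosen with earlier results of these data known. The result for 1 called promoter window is not reported here.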

Additional observations from a re-analysis of the deposited data

Results flagged for a closer look

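The autosomal level difference between clones and wild type changed by -5.31 points from t=0 to day 10, since both clones lay above the wild type at t=0 (4.40 points in N5, 4.46 in N9) and both below it at day 10 (-1.29 and -0.486). The signs are opposite in both clones, and the change itself was not tested at the level of the genome.

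The promoter window of Smim7, on chromosome 8, changed by -12.9 points over the same time. Both clones were close to the wild type at t=0, at 3.41% and 4.27% against 3.38%. Both were below it at day 10, at 4.18% and 2.09% against 15.6%. By edgeR's quasi-likelihood test the change had an adjusted p of 0.389, which misses the threshold, and the wild type is the library that stands apart.

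Of the gene bodies, 375 changed between t=0 and day 10 in the difference between clones and wild type by edgeR's quasi-likelihood test, all of them downwards. The largest of these changes were -34.3 points in Foxi3, -31.9 in Gm39966, -30.6 in Hirip3, -30.1 in Stmn1 and -28.9 in Abhd11, with adjusted p of 0.0473, 0.0488, 0.0499, 0.0473 and 0.0473. In each of the 5 both clones lay above the wild type at t=0 and below it at day 10, an order that their choice favours. Over all 25404 bodies both clones lay above the wild type at t=0 in 20798, and below it at day 10 in 12049. The count was 0 with the clone as a replicate block, with a flow cell term and by limma.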

How the results depend on the processing

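The autosomal level difference kept its sign in every alternative run, between -0.842 and -1.01 points by choice of CpGs, averaging or wild-type column, and between -1.29 and -0.486 when a clone was left out. Tile calls (236) kept to within 1.5 times under the flow cell term (239), lower or higher minimum of calls (245 and 230), tiles of 5 kb (328) and single wild-type columns (210 and 220). They were 392 from the day-10 libraries alone, 144 on autosomes without chromosome 8 (31 higher, 113 lower), 118 in tiles of 25 kb, 3 by limma on the logit and 4 after centring each library (1 higher, 3 lower). Leaving out a clone gave 134 to 351 tiles, from 134 without N5 to 351 without N9 at day 10. Window calls (15) were 51 from day 10 alone, 37 with 500 bp on either side, 4 on autosomes without chromosome 8, 0 by limma and 0 after centring, with 1899 and 1880 windows at an unadjusted p under 0.05. Leaving out a clone gave 6 to 19, with 6 without N5 and 7 without N9 at day 10. Gene body calls (10) were 5 without chromosome 8, 3 with the first wild-type column alone, and 0 by limma, 0 after centring and 0 from day 10 alone. Leaving out a clone gave 1 to 381, with 381 without N9 and 18 without N5 at day 10 and 1 without either clone at t=0. Tests against t=0 called 0 tiles and 0 windows in the alternatives run, except 1 window with the flow cell term. Leaving out a clone gave 0 to 1264 tiles there, 1264 without N9 at day 10. Of gene bodies 375 passed against t=0, in a test added after the data were seen, and 0 did with the replicate block, 0 with the flow cell term and 0 by limma, with 7523, 6980 and 5871 at an unadjusted p under 0.05. Leaving out a clone gave 0 to 6325 bodies, 0 without either clone at t=0 and 345 and 6325 without N5 and N9 at day 10. The cause of these moves was not tested.

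The clone numbers repeat over stages, and the fit with the clone as a replicate block called 207 tiles (29 higher, 178 lower), 11 windows and 6 gene bodies, the last fewer by over 1.5 times. Against t=0 the block called 0 tiles and 0 windows. At day 10 the wild type has no counterpart clone, so the block pairs only N5 and N9 across stages. No named feature that passed turned its direction in any alternative. Of 16 named tiles that passed, 3 passed in all settings run for them, and of 15 windows and 9 bodies 0 did. With about 6.20 calls per CpG at day 10, single CpGs could not be compared, and small windows such as Lum rest on 19 to 38 calls.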

Other observations

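Coverage within 500 bp of Mir203, relative to all autosomes, was 0.600 in the wild type, 0.714 in N5 and 0.640 in N9 at day 10. The CpGs there were at 6.25%, 1.92% and 6.46% methylation in the same order. At t=0 the coverage ratios were 0.945, 0.826 and 0.874.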
